A study of Mus musculus with 24 samples.

Results

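Voltage-gated sodium and calcium channel genes were followed in spinal cords of mice with experimental autoimmune encephalomyelitis (EAE), the inflammatory mouse model of multiple sclerosis. The members were every gene whose single platform symbol names a sodium channel alpha or beta subunit or a calcium channel alpha1, alpha2delta, beta or gamma subunit. This gave 33 genes of 17097 in all, of which 17 encode alpha subunits and 16 auxiliary subunits. Among wild-type mice, 5 had received Th17 cells, 5 had received Th1 cells and 5 were naive. Of the mice labelled Act1 KO, 4 had received Th17 cells and 5 were naive. Recipients were irradiated with 500 rad before the injection of polarized MOG35-55-specific T cells and were killed 12 days later, whereas naive mice were left untreated. Irradiation and transfer are therefore both part of every recipient group. The T cells came from lymph nodes and spleens of MOG-immunized donors and were cultured with IL-23 for Th17 polarization, or with IL-12 and an antibody to IL-23p19 for Th1 polarization. All mice were females of 8 to 12 weeks. The labels place the cords at the onset of symptoms and the paper at the peak of disease, and its drawing marks the control mice as Act1+/- where the labels say wild type.

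Voltage-gated channels open when the membrane is depolarized. The alpha subunit forms the pore and senses voltage, and auxiliary subunits set how much of it reaches the membrane and how fast it gates. Sodium channels, clustered at the axon initial segment and at nodes of Ranvier, carry the rising phase of the action potential, and presynaptic calcium channels turn its arrival into transmitter release. In demyelinated axons, the redistribution of sodium channels along the bared membrane is a known feature of EAE and multiple sclerosis.

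Each cord was measured on 1 Affymetrix array, on which a transcript is read by probe sets of short oligonucleotides. Values are log2 expression values that the authors made by RMA, and each gene was represented by its single-symbol probe set with the highest mean. Array medians lay between 3.46 and 3.57, with a median of 3.52, and the table holds no calls of presence. Markers of neurons were high in every naive cord (mean log2 value of 14 pan-neuronal genes 10.01 to 10.11 in wild-type mice), as spinal cord tissue should show. Traf3ip2, which encodes Act1, the adaptor of the IL-17 receptor, averaged 5.56 ± 0.24 in naive mice labelled Act1 KO and 4.29 ± 0.20 in naive wild-type mice (SD, n = 5 each). The targeted gene was thus higher under the KO label, and where its probe set lies relative to the deleted part is not given in the sources used here, so this value could not check the label. Over the 18 channel genes that fell in Th17 recipients (below), Th1 recipients 4 and 5 averaged -0.52 and -0.59 relative to naive mice, nearer to them than the other Th1 recipients (-0.84 to -0.74).

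Promoter sequences are shown for 4 members on which the results turn. These are the gene with the largest decrease, its neighbour in role Scn1a, and the only members called higher in Th17 recipients, Scn9a and Cacna1s. RefSeq (GRCm38.p6) gave a window around the start for 26 of the 33 members, and 7 had no entry in the table used here. Each line holds the 250 bases before the start on the gene's strand, 5′ to 3′, with CG dinucleotides in capitals. Scn8a lies at chr15:100870395-100870644 on the plus strand, Scn1a at chr2:66440838-66441087 on the minus strand, Scn9a at chr2:66634963-66635212 on the minus strand and Cacna1s at chr1:136052561-136052810 on the plus strand.
Scn8a: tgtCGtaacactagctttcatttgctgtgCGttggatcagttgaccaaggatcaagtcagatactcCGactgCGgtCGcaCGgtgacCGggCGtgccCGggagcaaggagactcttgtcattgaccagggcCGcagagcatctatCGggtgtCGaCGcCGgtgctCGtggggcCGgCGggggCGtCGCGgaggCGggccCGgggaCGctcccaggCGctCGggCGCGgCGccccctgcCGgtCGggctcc
Scn1a: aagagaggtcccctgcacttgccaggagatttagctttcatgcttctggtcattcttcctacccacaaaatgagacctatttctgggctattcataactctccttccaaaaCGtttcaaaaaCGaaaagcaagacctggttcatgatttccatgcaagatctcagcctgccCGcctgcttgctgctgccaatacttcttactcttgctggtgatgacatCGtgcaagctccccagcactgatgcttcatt
Scn9a: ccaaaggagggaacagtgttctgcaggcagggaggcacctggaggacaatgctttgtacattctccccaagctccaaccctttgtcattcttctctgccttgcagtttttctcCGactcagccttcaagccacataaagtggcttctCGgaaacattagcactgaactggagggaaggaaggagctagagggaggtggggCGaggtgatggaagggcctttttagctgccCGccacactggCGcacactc
Cacna1s: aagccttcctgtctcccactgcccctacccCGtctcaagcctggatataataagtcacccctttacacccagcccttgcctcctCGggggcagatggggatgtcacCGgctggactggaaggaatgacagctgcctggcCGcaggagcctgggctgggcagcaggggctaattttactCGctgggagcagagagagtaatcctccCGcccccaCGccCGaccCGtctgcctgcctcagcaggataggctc
The Scn8a window holds 30 CG dinucleotides, more than 94.1% of the 32851 windows in the table, whose median was 6, and the window of its other listed start holds 9. The windows of Scn1a, Scn9a and Cacna1s hold 4, 5 and 9. CG, which reads the same on both strands, occurs at least once in 92.1% of all windows. At the start listed first for each gene, the 14 members with a window that fell in Th17 recipients (below) held 1 to 37 CG, with a median of 24.5. The 10 that were not called held 0 to 12, with a median of 4.5. All of these except Cacna1d and Cacng5 were below the median of the array medians in every group, where a decrease may be missed (below). The counts also depend on the start taken. Cacna1d, not called, held 2 at its first start and 50 at its second, and Cacna1c, which fell, held 2 and 48. A link of CG with the decrease was not tested. Neither TTCAGCACC nor GGACAGCGC, the letters of half-sites of the RE1 element that the repressor REST binds in neuronal genes, occurs on either strand in any of the 35 windows of the members. They occur in 0.371% and 0.405% of all windows. At such shares 35 windows would seldom hold either, so this search cannot tell whether REST binds near these genes.

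The comparison of wild-type Th17 recipients with naive mice shows how the channel genes stood in the inflamed cord. Of the 33 members, 18 fell and 2 rose in Th17 recipients, by limma at an adjusted p under 0.05. Of all 17097 genes, 25.5% were called lower and 18.0% higher. The median difference was -0.58 log2 over the members and -0.05 over all genes. With each gene read as the mean of its probe sets, the median of the members was -0.29 and that of all genes stayed at -0.05. Auxiliary subunits (10 of 16 lower, none higher) and alpha subunits (8 of 17 lower, 2 higher) were both represented. The arrays had been brought to a common scale, and when they were centred on 64 ribosomal protein genes instead, the median of all genes moved to -0.49, that of the members moved to -1.01 and the split became 31 lower and 0 higher. On that scale 15035 of the 17097 genes were called in either direction, so a call there hardly sets the members apart. The 64 ribosomal protein genes averaged 0.44 higher in Th17 recipients on the deposited scale, so this centring lowers every difference by 0.44. It follows from this shift that the 18 genes that fell on the deposited scale also fell on that one, and that both increases were lost. In whole tissue, fewer cells of a type and less RNA per cell cannot be told apart.

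**Figure D1:**
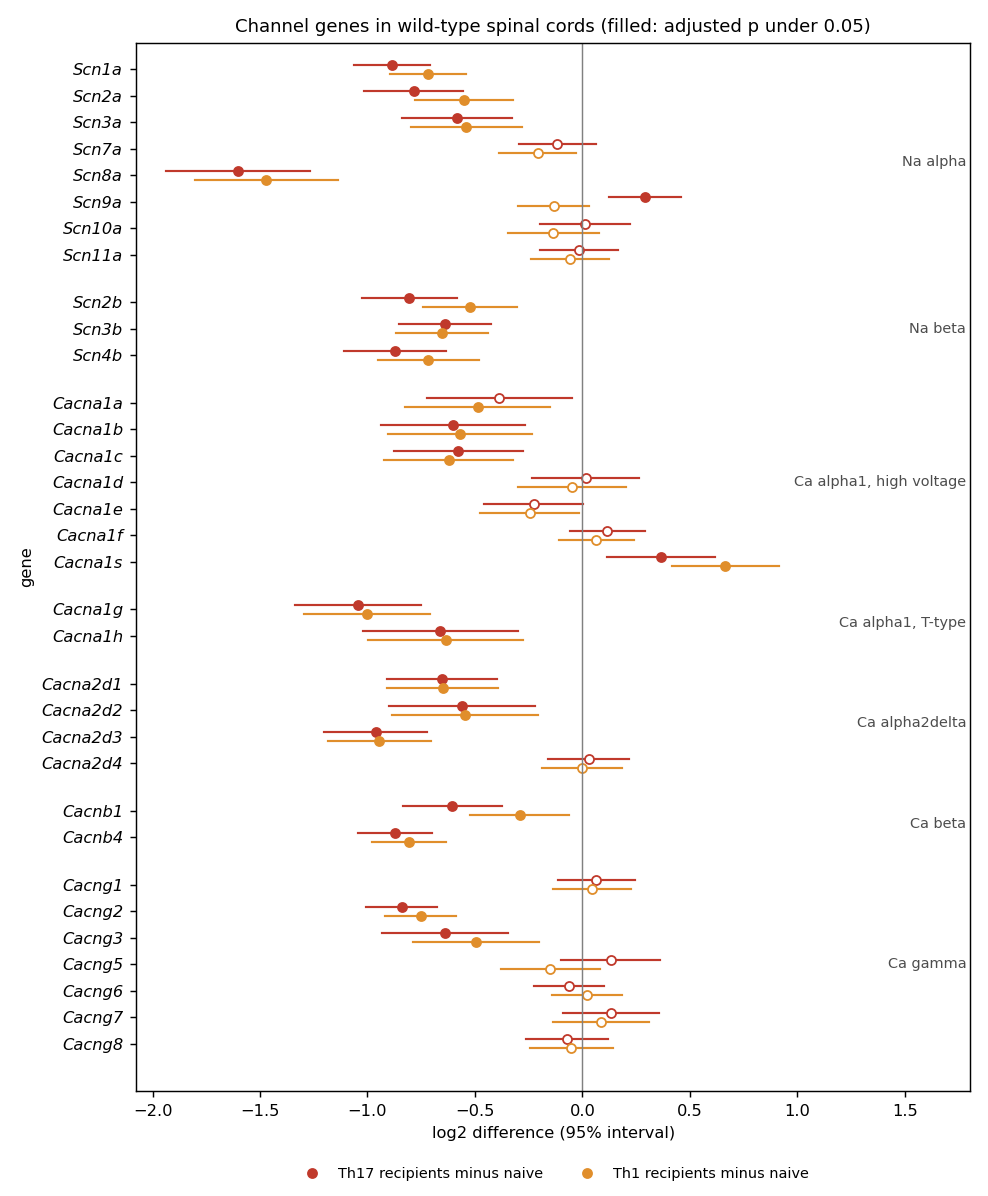
Log2 differences with 95% intervals of the 33 channel genes, in rows by subunit class, for Th17 recipients (red) and Th1 recipients (orange) minus the same naive wild-type mice, with filled points at an adjusted p under 0.05. Scn8a lies farthest left at -1.60 and -1.47, and Cacna1s and Scn9a are the only filled points right of 0. None of these increases keeps its call when arrays are centred on ribosomal protein genes. That centring lowers every difference by 0.44 in Th17 recipients and 0.49 in Th1 recipients. Scn9a then stands at -0.15 and Cacna1s at -0.07 in Th17 recipients, and Cacna1s at 0.17 in Th1 recipients.

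Among the pore-forming sodium channel genes, Scn8a, whose channel is the main one at mature nodes of Ranvier and initial segments, fell most. Its log2 values were 6.43, 6.11, 6.51, 5.96 and 6.86 in Th17 recipients and 8.11, 7.91, 7.85, 8.19 and 7.82 in naive mice. Every recipient lay below every naive mouse. The difference of -1.60 ± 0.16 (SE, adjusted p = 5.42e-09) is a 3.04-fold lower signal, and only 46 of the 17097 genes had a lower difference. Of the 4 probe sets of Scn8a, 3 fell, by -1.02 to -1.60, and the remaining dim one, with a mean of 2.78, differed by 0.04. Scn1a, prominent in fast-spiking inhibitory neurons, had 8.85, 8.79, 8.86, 8.62 and 8.81 in Th17 recipients and 9.65, 9.73, 9.78, 9.62 and 9.57 in naive mice. These groups did not overlap either (-0.88 ± 0.09, adjusted p = 2.71e-09), and all 3 of its probe sets fell. Scn2a, known from unmyelinated axons and developing nodes, fell by 0.78 and Scn3a, known mainly from embryonic neurons, fell by 0.58, with 1 of its 2 probe sets called and the other, dim one at -0.01. The sensory neuron channels Scn10a and Scn11a and the glial sodium sensor Scn7a had group means below the median of the array medians in all 5 groups, and differed by 0.01, -0.02 and -0.12 without passing the test.

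Scn9a, known from peripheral sensory and sympathetic neurons, was the sodium channel gene that went the other way. It read 3.11, 3.22, 3.27, 2.98 and 3.01 in Th17 recipients and 2.71, 2.87, 2.81, 2.86 and 2.89 in naive mice. The groups did not overlap and the difference was 0.29 ± 0.08 (adjusted p = 0.0044). All 5 group means lay below the median of the array medians, its other probe set gave 0.10 without a call, and the difference became -0.15 (adjusted p = 0.17) with ribosomal protein centring. In the gene order of GRCm38.p6, Scn9a lies between Scn1a and Scn7a in a cluster on chromosome 2 that also holds Scn2a and Scn3a, so members of this cluster fell, rose or did not pass the test side by side.

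All 3 measured sodium channel beta subunit genes fell in Th17 recipients. Scn4b, whose product is covalently joined to the alpha subunit and is tied to resurgent current, had 9.17, 9.03, 8.72, 8.99 and 8.96 in Th17 recipients and 10.10, 9.89, 9.82, 9.44 and 9.99 in naive mice. No value of one group reached the range of the other, and the difference was -0.87 ± 0.11 (adjusted p = 4.85e-07). Scn2b, also covalently bound to the alpha subunit, fell by 0.80, and Scn3b, which binds without such a bond, fell by 0.64. Scn2b and Scn4b are adjacent genes on chromosome 9.

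Of the 7 high-voltage-activated calcium channel alpha1 genes, 2 fell (28.6%) and 1 rose, near the shares of all genes (25.5% lower and 18.0% higher). Cacna1b, the pore of the N-type channel that feeds transmitter release, had 5.81, 5.81, 5.54, 5.92 and 6.29 in Th17 recipients and 6.58, 6.51, 6.18, 6.61 and 6.50 in naive mice. The groups overlapped in 1 mouse on each side, Th17 recipient 5 and naive mouse 3, and the difference was -0.60 ± 0.16 (adjusted p = 0.0034). Cacna1c, a neuronal and cardiac L-type pore, fell by 0.58. Cacna1a, the P/Q-type pore of fast synapses, differed by -0.39 (adjusted p = 0.0598). It was called lower under several other settings, among them median centring, quantile normalization and the mean of its probe sets, and 1 of its 4 probe sets was called, at -0.43 (adjusted p = 0.035 over all probe sets tested). Cacna1d, the other neuronal L-type pore, differed by 0.02. Cacna1e, the R-type pore, and the retinal L-type gene Cacna1f were below the median of the array medians in every group and differed by -0.23 and 0.12 without a call.

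Cacna1s, the L-type pore of skeletal muscle, rose. Its values were 3.27, 3.37, 3.29, 3.39 and 3.32 in Th17 recipients and 2.88, 2.85, 2.83, 3.28 and 2.95 in naive mice. The groups overlapped through naive mouse 4, which read 3.28 against 2.95 or less in the other naive mice, and the difference was 0.37 ± 0.12 (adjusted p = 0.0152). All of these values were under the median of the array medians, and with ribosomal protein centring the difference was -0.07 (adjusted p = 0.64). Of 10 skeletal muscle genes, 9 did not pass the test in this comparison and the troponin gene Tnni2 was 0.29 higher (adjusted p = 0.0337). The mean of the 10 genes per array lay between 2.97 and 3.28 in Th17 recipients and between 3.05 and 3.11 in naive mice, and all 10 had a mean below the array medians in Th17 recipients.

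Both T-type calcium channel genes, which encode pores that open near the resting potential, fell. Cacna1g had 5.52, 5.73, 5.61, 5.86 and 5.70 in Th17 recipients and 6.86, 6.75, 6.47, 6.75 and 6.80 in naive mice. Each recipient lay below each naive mouse, with a difference of -1.04 ± 0.14 (adjusted p = 8.80e-07), the only member beside Scn8a with a decrease of at least 2-fold. Cacna1h differed by -0.66 ± 0.18 (adjusted p = 0.0028), with overlapping groups. Both genes were read by 1 probe set each.

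The alpha2delta proteins carry calcium channels to the membrane, and those of Cacna2d1 and Cacna2d2 bind gabapentin. Cacna2d3 had the largest decrease of this class, with 7.25, 6.91, 7.03, 6.99 and 6.96 in Th17 recipients and 8.18, 7.96, 8.10, 7.70 and 8.01 in naive mice. The groups were separate, by -0.96 ± 0.12 (adjusted p = 1.19e-07). Cacna2d1 fell by 0.65 with all 3 of its probe sets called. Cacna2d2 fell by 0.56, but only 1 of its 3 probe sets was called, and with the mean of its probe sets the call was lost. Cacna2d4, known from the retina, differed by 0.03.

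Beta subunits bind the alpha1 subunit inside the cell, and both measured genes fell. Cacnb4, a neuronal form, had 5.69, 5.89, 5.75, 5.84 and 5.81 in Th17 recipients and 6.58, 6.71, 6.84, 6.67 and 6.54 in naive mice. The groups were far apart for their spread, with a difference of -0.87 ± 0.08 (adjusted p = 1.96e-09). Cacnb1, the form that pairs with the skeletal muscle channel and is also found in brain, fell by 0.60, with 1 of 3 probe sets called. Of the 7 gamma genes, 2 fell (28.6%, near the 25.5% of all genes). These were Cacng2 (stargazin) and Cacng3, whose products are best known as auxiliary subunits of AMPA-type glutamate receptors. Cacng2 had 7.05, 7.22, 7.11, 7.12 and 7.45 in Th17 recipients and 8.08, 7.92, 8.07, 7.99 and 8.10 in naive mice. Its groups did not overlap (-0.84 ± 0.08, adjusted p = 1.89e-09), both of its probe sets fell, and Cacng3 fell by 0.64. Cacng5, another AMPA receptor partner, differed by 0.13, and the dim Cacng1, Cacng6, Cacng7 and Cacng8 differed by -0.07 to 0.14, all without a call.

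**Figure D2:**
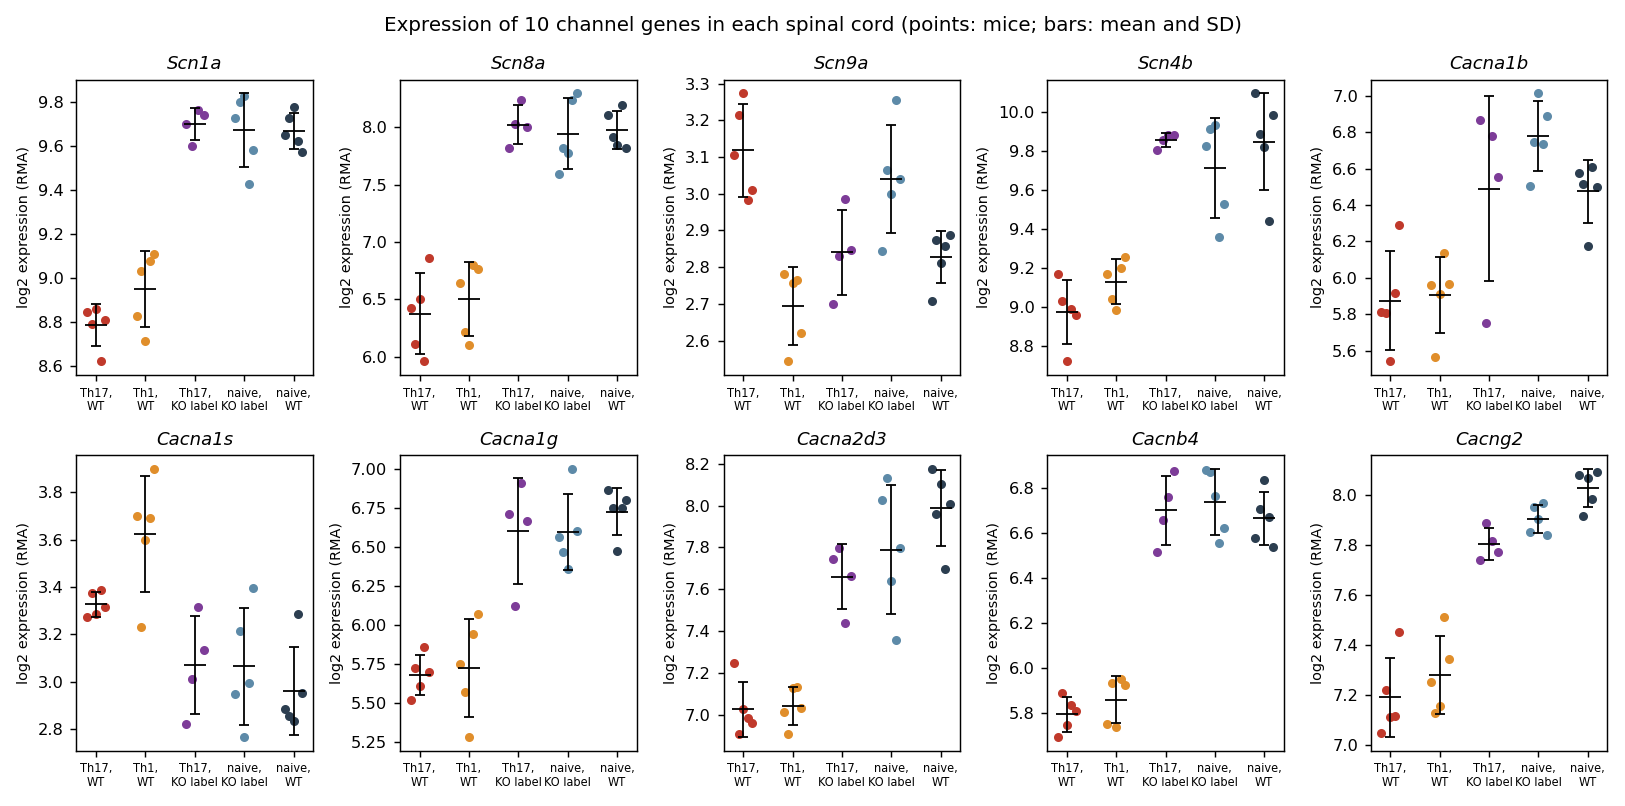
Log2 expression of 10 channel genes in each of the 24 spinal cords, with mice as points and the mean and SD of each group as bars (5 mice a group, 4 in Th17 recipients labelled Act1 KO). In 8 genes the wild-type recipients lie low. Cacna1s in both wild-type recipient groups and Scn9a in wild-type Th17 recipients lie higher on average than in naive wild-type mice, at values near or under the array medians. Naive mice labelled Act1 KO overlap with these recipients, at 2.765 to 3.397 in Cacna1s and 2.845 to 3.254 in Scn9a. In Th1 recipients Scn9a differed by -0.13 without a call. The increases of both genes in Th17 recipients turn below 0 when arrays are centred on ribosomal protein genes, which lowers every such difference by 0.44.

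The 11 members with group means below the median of the array medians in every group were Scn7a, Scn9a, Scn10a, Scn11a, Cacna1e, Cacna1f, Cacna2d4, Cacng1, Cacng6, Cacng7 and Cacng8. None of them was called lower and 1, Scn9a, was called higher, with a median difference of 0.01. By the mean over all arrays, 21 of the 33 members reached that level. A decrease of a gene near the background of the array may be missed.

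Genes whose products work with these channels were read from lists of the same kind. Of 12 partners at initial segments and nodes, 9 fell and 1 rose, with a median of -0.72. The fibroblast growth factor homologues that bind sodium channel tails were among them, with Fgf12 at -0.97, Fgf13 at -0.89 and Fgf14 at -0.92 (adjusted p = 2.99e-09 for Fgf12). The adhesion molecule gene Nrcam rose by 0.33 (adjusted p = 0.0084). Of 12 presynaptic release genes, 11 fell, with a median of -0.75 and Rims2, a scaffold that tethers calcium channels at release sites, at -1.05. Of the 3 measured RGK genes, whose products restrain high-voltage-activated calcium channels, Rrad (0.49) and Gem (0.42) rose and the neuronal Rem2 fell by 0.50.

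Markers of whole cell types moved in the same cords. Of 14 pan-neuronal markers, 13 fell, with a median of -0.71, and the mean of the list lay between 9.32 and 9.41 in Th17 recipients and between 10.01 and 10.11 in naive mice. Of 6 cholinergic and motor neuron markers 5 fell (median -0.82), led by the vesicular acetylcholine transporter gene Slc18a3 at -1.66. Oligodendrocyte markers fell in 8 of 9 genes (median -0.61) and oligodendrocyte precursor markers in 7 of 9, with 1 higher. All 10 macrophage and microglia markers (median 4.66), all 5 T cell markers (2.54) and all 4 neutrophil markers (4.70) rose, as did 4 of 5 fibroblast markers (2.67). Astrocyte markers were split, with 4 higher and 3 lower of 8, as were endothelial markers, with 2 higher and 2 lower of 6. None of 3 sensory ganglion markers was called, all 3 with means below the array medians, and of 4 Schwann cell markers only Egr2, also a macrophage gene, rose. The part of these shifts in the decrease of the channel genes was not tested.

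Scn8a fell further than the mean of the pan-neuronal list in the same cords. Single markers of that list differed by -1.16 (Map2) to -0.14 (Tubb3), and the motor neuron marker Slc18a3 stood at -1.66, beside -1.60 for Scn8a. Its value relative to the naive wild-type mean, less that of the 14 pan-neuronal markers, was -0.89, -1.20, -0.75, -1.27 and -0.46 in Th17 recipients and between -0.14 and 0.22 in naive mice. All of these recipients lay below all naive wild-type mice on this measure too. Naive mice labelled Act1 KO spread more widely, from -0.42 to 0.42, close to the highest Th17 recipient at -0.46. For Scn1a the same measure averaged -0.20 in Th17 recipients, and its range of -0.31 to -0.09 did not reach the naive wild-type range of -0.04 to 0.10. Naive mice labelled Act1 KO, at -0.08 to 0.09, came close to it. In Th1 recipients Scn8a stood at -1.06 to -0.54 on this measure, and Scn1a, at -0.16 to 0.11, overlapped with naive mice. For the other 16 members that fell, Th17 recipients and naive mice overlapped on this measure, among them Cacna1g with -0.55 to -0.13 in Th17 recipients and -0.26 to 0.13 in naive mice. Probe sets can differ in how far they follow a change, and this was not tested.

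**Figure D3:**
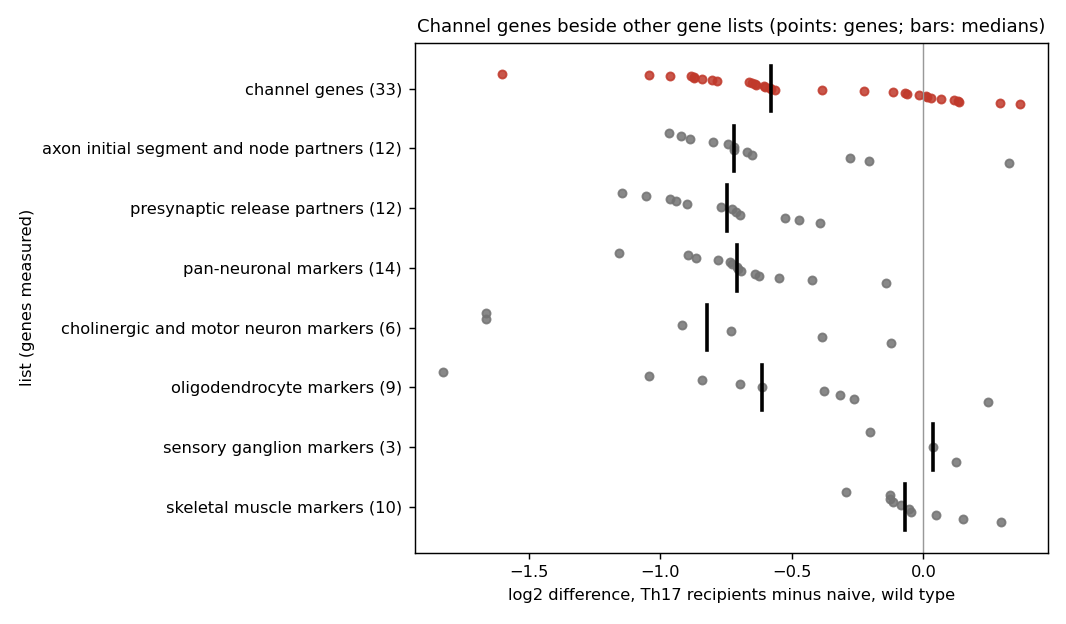
Log2 differences of single genes (points) between wild-type Th17 recipients and naive mice, with the median of each list as a bar, for the channel genes and 7 other lists. The medians of the channel genes (-0.58), of the oligodendrocyte markers (-0.61) and of the neuronal lists (-0.71 to -0.82) lie left of 0. Those of sensory ganglion (0.04) and skeletal muscle (-0.07) genes lie near 0. All genes of these latter lists had means below the array medians in Th17 recipients, where a decrease may be missed.

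The comparison of Th1 recipients with the same naive mice asked whether transfer of the other T cell type went with like levels. It gave 19 members lower and 1 higher, against 24.1% and 16.7% of all genes, with a median of -0.49, or of -0.28 with the mean of probe sets. The comparisons share their naive mice, so their values are given side by side and not as independent evidence. Scn8a had 6.65, 6.22, 6.10, 6.80 and 6.76 in Th1 recipients, all below the naive range of 7.82 to 8.19, with a difference of -1.47 ± 0.16 (adjusted p = 3.07e-08). Cacna1g (-1.003), Cacna2d3 (-0.95), Cacnb4 (-0.81), Cacng2 (-0.75), Scn1a (-0.72) and Scn4b (-0.72) followed. Cacna1a was called here (-0.49, adjusted p = 0.0183), a call that was lost without naive mouse 4 (adjusted p = 0.0501). Cacnb1 differed by -0.29 (adjusted p = 0.0379), and this call was lost without Th1 recipient 1 or 5 or without naive mouse 1, 2 or 4, with an adjusted p of up to 0.15. Without Th1 recipients 4 and 5 together, 19 of the 20 calls remained and Cacnb1 was lost.

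Cacna1s was the only member called higher in Th1 recipients. It read 3.70, 3.23, 3.60, 3.69 and 3.90 there and 2.88, 2.85, 2.83, 3.28 and 2.95 in naive mice. Th1 recipient 2 and naive mouse 4 overlapped, and the difference was 0.66 ± 0.12 (adjusted p = 5.93e-05). With ribosomal protein centring it was 0.17 (adjusted p = 0.26). The muscle gene Tnni2 was 0.70 higher in the same mice (adjusted p = 1.01e-05), and the other 9 muscle genes were not called. Their part in the Cacna1s value was not tested.

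Set against each other, Th17 and Th1 recipients differed in 1 member. Scn9a was 0.42 ± 0.08 higher in Th17 recipients (adjusted p = 0.0021), with 3.11, 3.22, 3.27, 2.98 and 3.01 in Th17 recipients and 2.78, 2.54, 2.76, 2.77 and 2.62 in Th1 recipients. No Th17 recipient overlapped with a Th1 recipient (exact permutation p = 0.0079, two-sided, the smallest that 5 against 5 allows). The gene was picked by its call on these same values, so this p adds no support. All of these values lie near the background of the array. The other probe set of Scn9a differed from naive mice by 0.10 in Th17 and -0.07 in Th1 recipients. The call was lost by the methods' t-test and by the exact Mann-Whitney test, which called none of all genes. Of all genes 1.91% were called higher and 1.09% lower in this comparison. A further 5 members had an unadjusted p under 0.05 and no call, namely Cacnb1 (-0.31), Cacna1s (-0.30), Scn2b (-0.28), Scn2a (-0.23) and Cacng5 (0.28). Of all 17097 genes, 2051 had an unadjusted p under 0.05 here. For Scn8a the difference was -0.13, with a 95% interval of -0.47 to 0.20.

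The mice labelled Act1 KO asked whether the Th17 response of the channel genes depended on the adaptor of the IL-17 receptor. In Th17 recipients with this label no member was called against naive mice of the same label by limma. None of all 17097 genes was (0% in either direction, with 1070 genes at an unadjusted p under 0.05), and 3 members had an unadjusted p under 0.05. Scn8a had 7.82, 8.03, 8.23 and 8.0 in these recipients and 7.59, 7.82, 7.78, 8.24 and 8.30 in naive mice with the label. The groups overlapped fully, with a difference of 0.08 and a 95% interval of -0.28 to 0.43. The members with an unadjusted p under 0.05 were Cacna2d1 (0.28), Scn9a (-0.20) and Cacng8 (-0.24). Macrophage and microglia markers averaged 3.87 to 4.02 per array in the recipients and 3.89 to 4.00 in the naive mice labelled Act1 KO, against 8.10 to 8.53 in wild-type Th17 recipients.

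Between naive mice labelled Act1 KO and naive wild-type mice no member was called, against 0.164% of all genes higher and 0.421% lower. An unadjusted p under 0.05 was found in 1 member, Scn9a (0.21), and in 1250 of all 17097 genes. Among the 18 members that fell in wild-type recipients, the widest 95% interval of this difference was that of Cacna1h, at -0.18 to 0.54, and that of Scn8a was -0.37 to 0.30.

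The difference of the Th17 response between the genotype labels, labelled Act1 KO minus wild type, was tested itself. It was called in 16 members, 15 with a positive value, where the wild-type decrease was missing under the KO label, and 1 with a negative value. Of all genes 18.2% had a positive and 13.8% a negative call. Scn1a had 9.70, 9.60, 9.76 and 9.74 in recipients labelled Act1 KO and 9.73, 9.80, 9.83, 9.43 and 9.58 in naive mice labelled Act1 KO. It stayed in the naive range, and the responses differed by 0.91 ± 0.13 (adjusted p = 2.02e-06). For Scn8a they differed by 1.68 ± 0.24 (adjusted p = 2.78e-06). Scn4b had 9.81, 9.86, 9.88 and 9.88 in the recipients labelled Act1 KO and 9.83, 9.92, 9.94, 9.36 and 9.53 in the naive mice, a response difference of 1.02 ± 0.17.

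Cacnb4 had 6.52, 6.66, 6.76 and 6.88 in recipients labelled Act1 KO and 6.88, 6.87, 6.77, 6.56 and 6.62 in naive mice with this label. Cacng2 had 7.74, 7.89, 7.82 and 7.77 in these recipients and 7.86, 7.95, 7.91, 7.97 and 7.84 in the naive mice. Both overlapped with their naive group, and their responses differed from the wild-type ones by 0.83 and 0.74. The other members with a positive call were Cacna1g (1.05), Cacna2d1 (0.93), Cacna2d3 (0.83), Cacnb1 (0.75), Scn2b (0.74), Scn2a (0.70), Scn3a (0.65), Cacna2d2 (0.64), Cacng3 (0.63) and Scn3b (0.56). Of the 18 members that fell in wild-type recipients, Cacna1b (0.31), Cacna1c (0.44) and Cacna1h (0.63) did not pass this test, so that no high-voltage-activated alpha1 gene was called. The call of Cacna2d2 was lost when any single one of 11 of the 19 arrays was left out, with an adjusted p of up to 0.10.

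Scn9a was the member with a negative value, of -0.49 ± 0.12 (adjusted p = 0.0019). It read 2.70, 2.83, 2.99 and 2.85 in recipients labelled Act1 KO and 2.85, 3.06, 3.00, 3.25 and 3.04 in naive mice with the label. With ribosomal protein centring the value was -0.11 (adjusted p = 0.50). With the row letter of each label's position code as a block, 13 of the 16 calls remained, and Scn2a, Scn3a and Scn9a were lost. Within the 4 rows that hold both wild-type groups, the Scn8a difference between Th17 recipients and naive mice was -1.95 to -1.33, that of Scn9a was 0.11 to 0.57 and that of Cacna1s was 0.03 to 0.53. Within 3 rows the Scn9a value of Th17 recipients exceeded that of Th1 recipients by 0.35 to 0.65, and Th1 recipients differed from naive mice by -1.63 to -1.18 in Scn8a and by 0.40 to 1.02 in Cacna1s. The genotype label and the missing rise of immune cell markers in these cords cannot be told apart in this comparison.

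**Figure D4:**
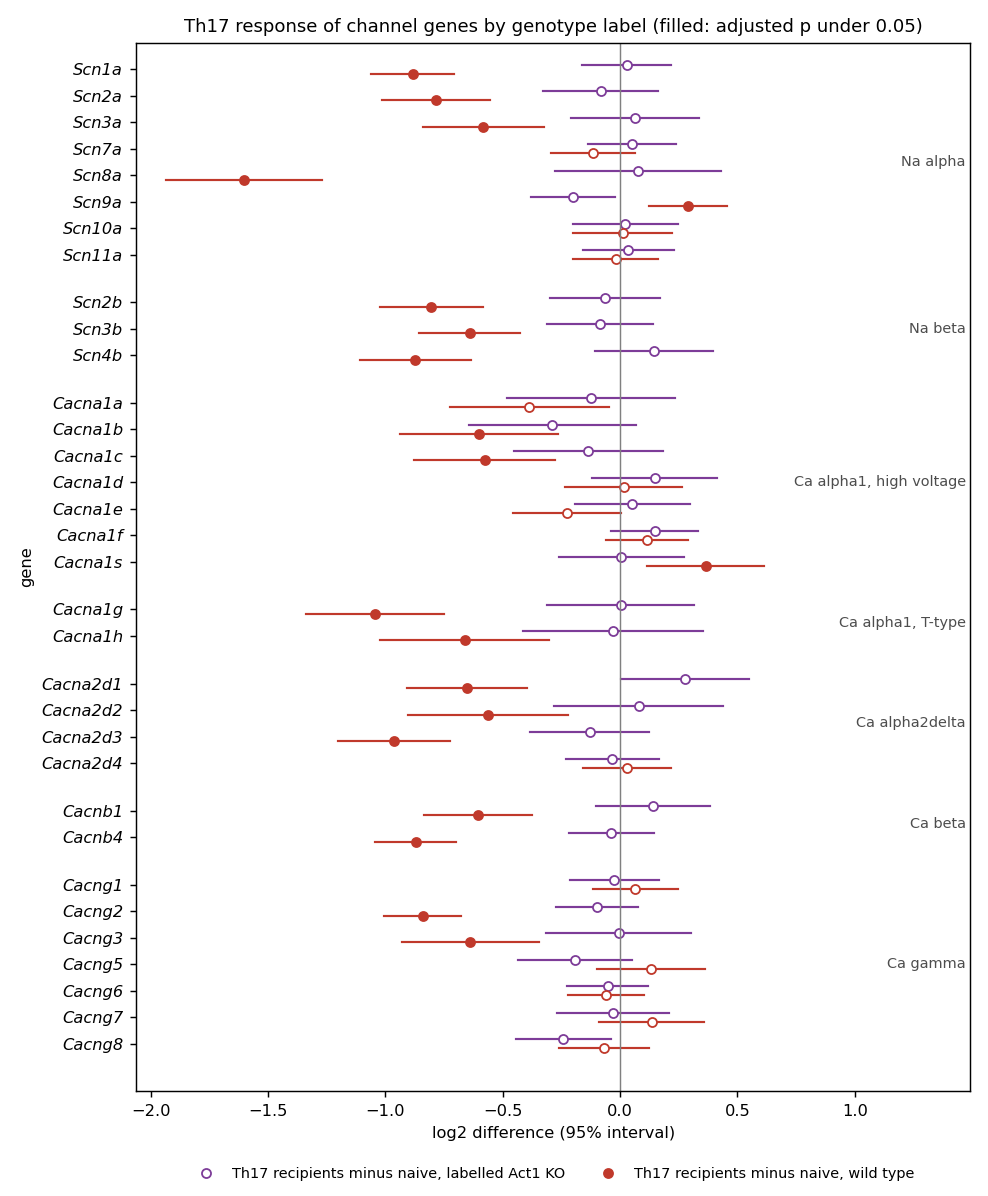
Log2 differences with 95% intervals of the 33 channel genes between Th17 recipients and naive mice, for mice labelled Act1 KO (purple) and for wild-type mice (red), with filled points at an adjusted p under 0.05. No purple point is filled, and Scn8a stands at 0.08 under the KO label and at -1.60 in wild-type mice. The red increases of Scn9a and Cacna1s turn below 0 with ribosomal protein centring, which lowers every red difference by 0.44.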

How the data were processed

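Spinal cord RNA of 24 mice was measured on Affymetrix arrays, and groups were taken from the labels. The authors deposited 1 table of log2 values for 45118 probe sets, made by RMA. The sources used here do not give its version or say which arrays it took in together. RMA forces a common distribution on the arrays and so hides a shift shared by most genes of a group. Precision is limited by the number of arrays. Platform annotation gave 28898 probe sets 1 symbol, 551 several and 15669 none listed here, and only the first kind was used. Same-group arrays correlated at 0.986 to 0.997 and none were identical, so each mouse was 1 replicate.

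Group differences came from lmFit and eBayes of limma 3.58.1 (R 4.3.3; 24 arrays in 1 fit, two-sided, no block). A gene was called where its Benjamini-Hochberg p, over 17097 genes, was under 0.05. The step was tested on simulated data. Values per mouse are given for the member with the largest called difference in each class, the 5 largest decreases and increases in Th17 recipients, and up to 5 members called in the other comparisons. From other lists, up to 3 genes with the smallest adjusted p are named, and single exceptions, chosen after their values were seen. Members and lists were chosen with earlier results of these data known. The measure of members less neuronal markers and the promoters shown were chosen after values were seen. Codes read here as positions were taken from the labels, which do not say what they stand for. Alternatives covered the choice of probe set, a filter on dim genes, 3 scalings, the variance model, array weights, blocks, the groups in the fit, a 2-fold threshold, the exact Mann-Whitney test, the methods' t-test and the omission of single arrays.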

Additional observations from a re-analysis of the deposited data

Results flagged for a closer look

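The Th17 response, labelled Act1 KO minus wild type, differed by the limma contrast in 16 members. The log2 values were 1.68 for Scn8a, 1.05 for Cacna1g, 1.02 for Scn4b, 0.93 for Cacna2d1, 0.91 for Scn1a, 0.83 for Cacna2d3, 0.83 for Cacnb4, 0.75 for Cacnb1, 0.74 for Cacng2, 0.74 for Scn2b, 0.70 for Scn2a, 0.65 for Scn3a, 0.64 for Cacna2d2, 0.63 for Cacng3, 0.56 for Scn3b and -0.49 for Scn9a.

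In 50 sets of values (10 members in 5 groups), 3 mice stood far from their group. Scn1a was lowest in Th17 recipient 4 at 8.62, with the nearest mouse at 8.79 (gap over range 0.720). Cacna1b was lowest in naive wild-type mouse 3 at 6.18, with the nearest at 6.50 (0.745). Cacna1s was highest in naive wild-type mouse 4 at 3.28, with the nearest at 2.95 (0.739). Chance marks about 1 in 20 such sets.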

How the results depend on the processing

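The range of the RMA values and the number of arrays limit all results, and decreases of genes near the array background may be missed. Centring arrays on ribosomal protein genes gave 31 members lower and 0 higher in Th17 recipients, 32 lower and 0 higher in Th1 recipients, and a genotype difference positive in 25 and negative in 0; the median of all genes moved to -0.49 and -0.55 in the recipients. This centring moved every difference of a comparison by the same amount, 0.44 down in Th17 recipients, 0.49 down in Th1 recipients and 0.38 up in the genotype difference. Cacna1s and Scn9a then read -0.0704 and -0.146 in Th17 recipients, Cacna1s 0.171 in Th1 recipients, and the genotype difference of Scn9a was -0.107, all without a call. A 2-fold threshold left 2 lower and 0 higher in either wild-type comparison with naive mice, 0 higher in Th17 over Th1 recipients, and 3 positive and 0 negative genotype differences. A filter on dim genes (21 members tested) removed Scn9a and Cacna1s, leaving 0 higher in the 3 wild-type comparisons and 0 negative genotype differences. Scn9a was not called between Th17 and Th1 recipients, so that 0 were higher, by the methods' t-test (adjusted p = 0.073 by Benjamini-Hochberg) or the exact Mann-Whitney test (0.24). None of all genes was called by the Mann-Whitney test in this comparison, so its result does not set Scn9a apart. Negative genotype differences numbered 2 with array weights and 0 with the row letter of the label's code as a block (Scn9a -0.46, adjusted p = 0.077). Leaving out each array gave 0 to 1 lower between Th17 and Th1 recipients, the 1 being Cacnb1 without Th1 recipient 1. The cause was not tested. With mean probe sets, Cacna2d2 was lost in Th17 recipients, as were the genotype differences of Scn3a and Cacna2d2. Cacna2d2 was also lost in Th17 recipients by the t-test and the Mann-Whitney test, and Cacna1h by the Mann-Whitney test. In Th1 recipients both tests lost Cacna2d2, Cacnb1 and Cacng3. Median centring and quantile normalization kept all calls of the 4 comparisons with any. Both added Cacna1a in Th17 recipients and the genotype differences of Cacna1c and Cacna1h. Median centring also added Cacna1e in Th17 recipients, and Scn7a and Cacna1e in Th1 recipients. Quantile normalization also added Scn7a, Cacna1d and Cacng5 in Th1 recipients.

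Same-numbered mice did not deviate together (correlations -0.25 to 0.44), so the numbers were not taken as pairs. A replicate block left 18 lower and 2 higher in Th17 recipients and changed no count of members in the 6 comparisons.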
